A study of Homo sapiens with 13 samples.

Results

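The HOX genes encode homeodomain transcription factors and lie in 4 clusters. Within a cluster the genes are numbered by paralogue group: low (anterior) numbers are used toward the head of the embryo and in response to retinoic acid, and high (posterior) numbers act in the trunk end, limbs and genitourinary tract. In the adult prostate the posterior genes, HOXB13 above all, remain active. HOX proteins bind DNA together with TALE homeodomain partners of the PBX and MEIS families, and the clusters are held active or silent by trithorax and polycomb complexes.

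The members were chosen as rows of the raw count table whose symbol is HOXA, HOXB, HOXC or HOXD followed by a number. Those described were 38 genes of 67882 rows, and 29 of them were among the 15734 genes with enough counts to test. RNA came from PC3 cells, an established human prostate cancer line, all carrying a short hairpin RNA against TIMP1. The 4 groups, each exposed for 48 h, were Vehicle (3 libraries), Docetaxel at 1 nM (4 libraries), Adapalene at 5 µM (3 libraries) and Combo, both drugs (3 libraries), for which the labels do not restate the doses. Docetaxel is a microtubule-stabilising taxane, and adapalene an agonist of the retinoic acid receptors. The series' design text calls the replicates technical, so p-values measure only the spread between such libraries and not between independent cultures. Cells lacking the hairpin are not part of the libraries used here. TIMP1 was at 55.0 to 65.0 CPM (counts scaled to a common library size) in Vehicle, 56.2 to 71.0 CPM in Docetaxel, 70.4 to 105 CPM in Adapalene and 98.1 to 111 CPM in Combo.

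Library totals ran from 11948720 to 16235041 counts, and HOX genes together took 413 to 529 CPM. Mitochondrially encoded genes took 0.722 to 2.82% of counts and exceeded 2% in Vehicle 3, Docetaxel 4, Adapalene 3 and Combo 3. The label of the cells as prostate epithelial was checked with markers: KRT8, KRT18 and EPCAM summed to 1335 to 2523 CPM, while KLK2 had no count and KLK3 at most 1 count in any library. EPCAM was lower in Adapalene (log2 −0.50, adjusted p 0.0008) and Combo (−0.53, 0.0003) and KRT18 in Adapalene (−0.50, 0.019; up to 0.0839 under the alternatives, lost without Vehicle 1, Vehicle 2, Adapalene 1 or Adapalene 2). TMPRSS2, a luminal marker at 8.55 to 21.9 CPM, was higher in Combo (0.73, 0.0249; up to 0.11, lost without Vehicle 1, Vehicle 2 or Combo 2). Fibroblast markers (4 genes, 1 of them tested) summed to 1.13 to 2.61 CPM and leukocyte markers (4 genes, 1 tested) to 0.923 to 3.28 CPM. PTPRC, the leukocyte marker tested, was higher in Combo than in Vehicle (log2 1.14, adjusted p 0.0128) at 10 to 37 counts per library. It was not called without Vehicle 2, Combo 3 or the 4 libraries just named (adjusted p up to 0.104). The part of these marker changes in any HOX result was not tested.

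Upstream sequence is shown for the called HOX genes that the RefSeq promoter table (GRCh38.p14) holds, HOXA3, HOXA10 and HOXA13, because the first rose and the other two fell. All 3 genes lie on the minus strand of chromosome 7. Each run is 5′ to 3′ and ends just before an annotated transcript start. For HOXA13 the bases that GENCODE annotates as UTR were left out. HOXA3 has 7 windows in the table, and the one shown has the most motif matches. HOXA10 has 2, and the one not shown, which GENCODE annotates as UTR throughout, also holds a TATA box and a CCAAT box match and a match to the posterior HOX core given with the counts of windows. Capitals mark matches, on either strand, to the CCAAT box (CCAAT), the TATA box (TATAAA) or a retinoid receptor half-site (AGTTCA).
HOXA3, chr7:27152584-27152833: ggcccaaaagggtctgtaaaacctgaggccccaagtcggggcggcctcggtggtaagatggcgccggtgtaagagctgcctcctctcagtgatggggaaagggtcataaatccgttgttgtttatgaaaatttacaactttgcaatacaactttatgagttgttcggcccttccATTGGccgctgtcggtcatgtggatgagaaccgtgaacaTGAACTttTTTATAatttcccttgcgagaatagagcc
HOXA10, chr7:27174321-27174570: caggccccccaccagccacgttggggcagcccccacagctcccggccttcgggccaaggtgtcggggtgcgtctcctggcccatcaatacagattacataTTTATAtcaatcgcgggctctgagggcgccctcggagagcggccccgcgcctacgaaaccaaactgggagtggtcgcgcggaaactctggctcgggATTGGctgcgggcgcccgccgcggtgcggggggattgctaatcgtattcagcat
HOXA13, chr7:27200107-27200341: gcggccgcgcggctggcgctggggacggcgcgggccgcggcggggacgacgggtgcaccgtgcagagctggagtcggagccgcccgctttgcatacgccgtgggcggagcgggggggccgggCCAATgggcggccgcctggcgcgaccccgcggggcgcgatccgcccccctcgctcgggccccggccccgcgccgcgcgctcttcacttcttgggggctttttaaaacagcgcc

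The table matched 20 HOX genes, with 26 distinct windows of 300 bases (250 before the start and 50 after it). Most are of A and D genes, several of HOXA3 alone, and some are of genes not measured here. The B cluster is present only with HOXB1, and the C cluster only with a window shared by HOXC4 and HOXC5. The shares below describe these windows and not the HOX genes as a whole. CCAAT, read on both strands, occurred in 17 of the 26 windows against 34.65% of all 34943 windows of that length. In the HOXA3 window the AGTTCA match lies 37 bases and the TATAAA match 29 bases before the start, next to each other. AGTTCA occurred in 5 of 26 HOX windows (10.47% of all windows), and the other half-site form, AGGTCA, in 0 of 26 (13.83% of all). The retinoid receptor direct repeat, AGGTCA followed by another copy after 5 bases, occurred in 0 HOX windows and in 2 windows in all. The posterior HOX core TTTATNG, which overlaps TATAAA where both match, was present in 6 of 26 (9.747% of all), TATAAA in 5 (11.57%) and the HOX and PBX composite TGATTNAT in 2 (2.825%). HOX windows held a median of 22.5 CG dinucleotides against 14 over all windows. A match is a string in a window and shows no binding.

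Transcripts of the A and B clusters dominated in untreated cells, and the D cluster was nearly silent. Of the genes described in the A cluster (chromosome 7, 27100354 to 27200106) 10 of 10 had enough counts, of the B cluster (chromosome 17, 48528526 to 48729178) 9 of 10, of the C cluster (chromosome 12, 53938765 to 54056030) 7 of 9, and of the D cluster (chromosome 2, 176092891 to 176190907) 3 of 9. Not measured were HOXB1 and HOXD9, with no count in any library, HOXD10 and HOXD11 with at most 1, HOXD13 with at most 2, HOXC12 and HOXD12 with at most 3, and HOXC5 and HOXD1 with at most 4 counts in any library. A count of 0 allows up to 3 counts, or 0.185 to 0.251 CPM by library, counting error only. The missing D genes were therefore the posterior paralogues 9 to 13 and HOXD1.

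Per kilobase of exon, HOXB13 was the most abundant HOX transcript in Vehicle, at 44.6 ± 4.63 CPM per kb (SD, n = 3). HOXB9 followed at 34.5 ± 4.11, HOXA11 at 15.5 ± 1.37 and HOXA9 at 10.4 ± 0.485 CPM per kb, and none of these 4 overlapped the next in rank over the Vehicle libraries. From HOXB6 (6.45 ± 0.884 CPM per kb) down, nearly every gene overlapped its neighbour in the order. HOXA10 (6.17), HOXC13 (5.91) and HOXA13 (5.77 CPM per kb) stood together behind HOXB6. At the low end were HOXC11 at 0.203, HOXD3 at 0.197 and HOXB4 at 0.163 CPM per kb. Of the 3 measured paralogues numbered 13, HOXB13 stood far above HOXC13 and HOXA13, which overlapped. Those numbered 4 ran from 0.163 in HOXB4 to 1.26 CPM per kb in HOXA4.

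**Figure D1:**
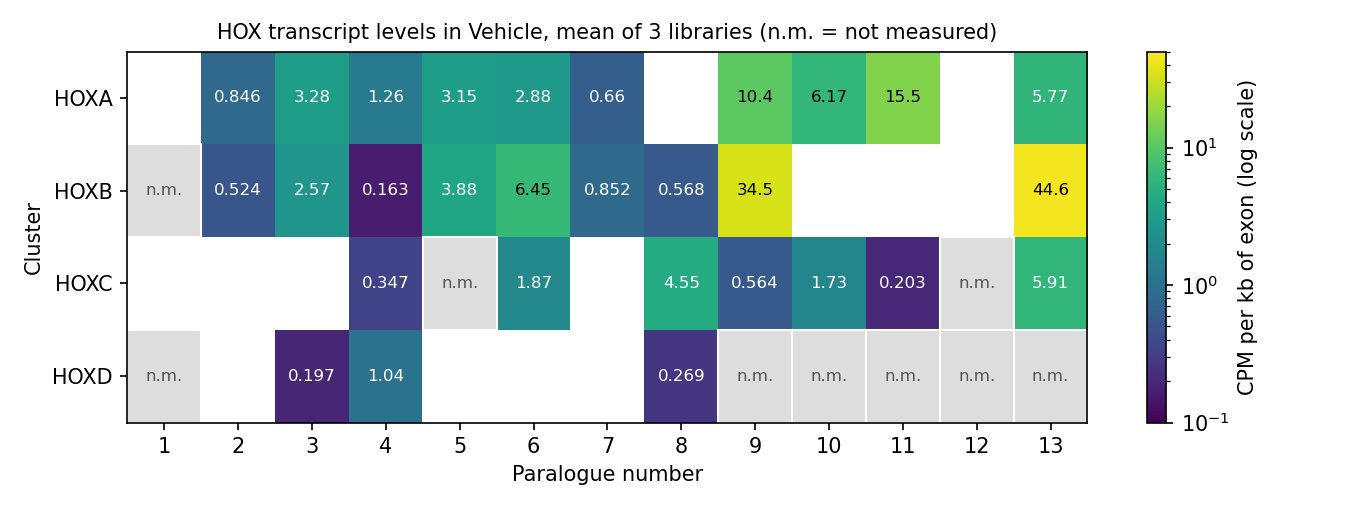
Mean level of each HOX gene in the 3 Vehicle libraries, as CPM per kb of exon on a log colour scale, with clusters in rows and paralogue numbers in columns. Blank cells hold no gene described, and n.m. marks the 9 genes not measured. HOXB13 (44.6) and HOXB9 (34.5) are the highest cells, and the D row holds 3 measured genes.

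Docetaxel changed few HOX genes, and the 3 called lower were numbered 10 or 13. A gene is called when its adjusted p (edgeR's quasi-likelihood test, adjusted by the Benjamini-Hochberg method over all 15734 genes) is under 0.05. HOXA13, HOXB13 and HOXA10 fell and HOXB2 rose against Vehicle, 4 of 29, or 13.8%, against 25.9% of all genes tested. In bulk RNA, fewer cells with a transcript and less transcript per cell cannot be told apart. The share of HOX genes called was below that of all genes, with a median standard error of 0.22 for HOX genes and 0.12 for all genes on the log2 scale. The median log2 change was 0.09 over the 29 HOX genes and −0.02 over all genes. By paralogue group, 0 of the 10 tested genes numbered 5 to 8 were called and 1 of 9 numbered 1 to 4 (higher). Of those numbered 9 to 13, 3 of 10 were called, all lower, a share near the 25.9% of all genes (12.8% lower). The estimate was negative in 2 of 9 genes numbered 1 to 4, 2 of 10 numbered 5 to 8 and 5 of 10 numbered 9 to 13. HOXD4 (−0.74), HOXC4 (−0.61) and HOXA6 (−0.49), at no more than 60 counts per library, lay below HOXA10 (−0.34) and were not called.

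HOXB13 (chromosome 17, 48724763 to 48729178), the lineage factor of the prostate, was at 137, 158 and 168 CPM in Vehicle and at 81.3, 77.6, 89.8 and 100 CPM in Docetaxel. Every Docetaxel library lay below every Vehicle library. The log2 difference was −0.83 ± 0.23 (SE; adjusted p 0.0158). The call was lost without Vehicle 2 (adjusted p 0.053), Vehicle 3 (0.0529) or Docetaxel 2 (0.051). HOXA13 (chromosome 7, 27193503 to 27200106), needed for distal limbs and the genitourinary tract, was at 26.6, 26.7 and 34.7 CPM in Vehicle and at 17.3, 17.3, 16.5 and 19.2 CPM in Docetaxel. The 2 groups did not overlap, and Vehicle 3 stood apart above the other Vehicle libraries. Its log2 difference was −0.74 ± 0.16 (adjusted p 0.0037), and the call remained whichever library was left out (adjusted p at most 0.0239).

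HOXA10 (chromosome 7, 27170591 to 27180261), which patterns the reproductive tract, was at 25.1, 21.8 and 21.6 CPM in Vehicle and at 18.5, 17.1, 18.9 and 17.9 CPM in Docetaxel. Vehicle lay above Docetaxel with no overlap, but by a narrow gap. Docetaxel differed by −0.34 ± 0.11 on the log2 scale (adjusted p 0.0313). It was not called without Vehicle 1 (adjusted p 0.135), Vehicle 2 (0.0594), Docetaxel 1 (0.0621), Docetaxel 2 (0.0895) or Docetaxel 4 (0.0644). HOXB2 (chromosome 17, 48540894 to 48544989), an anterior gene of hindbrain patterning, was at 1.23, 1.14 and 1.30 CPM in Vehicle and at 2.84, 2.89, 2.81 and 2.92 CPM in Docetaxel. These are 16 to 21 counts per Vehicle library and 33 to 48 per Docetaxel library, and the groups were far apart. HOXB2 differed by 1.22 ± 0.25 on the log2 scale (adjusted p 0.0028), and no library decided it (adjusted p at most 0.0177 when any was left out).

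Adapalene alone lowered HOXA10, 1 of 29 HOX genes (3.45%) against 18.4% of all genes (9.25% higher and 9.16% lower). HOXA10 stood at 18.5, 18.6 and 14.8 CPM in Adapalene, below all Vehicle libraries. Its log2 difference was −0.40 ± 0.12 (adjusted p 0.0275). The call was lost without Vehicle 1 (adjusted p 0.12), Vehicle 2 (0.0534) or Adapalene 3 (0.0948), and without the 4 libraries of high mitochondrial share (0.0748). HOXB13 was at 150, 207 and 89.3 CPM and HOXA13 at 22.7, 28.8 and 17.8 CPM in Adapalene. Both were highest in Adapalene 2 and lowest in Adapalene 3, and both ranges overlapped Vehicle. The log2 difference of HOXB13 was −0.06 with a 95% interval of −0.54 to 0.42, and neither gene was called. HOXC11, a posterior C gene, was at 1.72, 1.05 and 1.75 CPM in Adapalene, above all Vehicle libraries (0.558 to 0.724 CPM), and was not called (log2 difference 1.18 ± 0.42, adjusted p 0.0621). It was called with only the groups compared (adjusted p 0.0442) and without Adapalene 2 (0.0492).

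**Figure D2:**
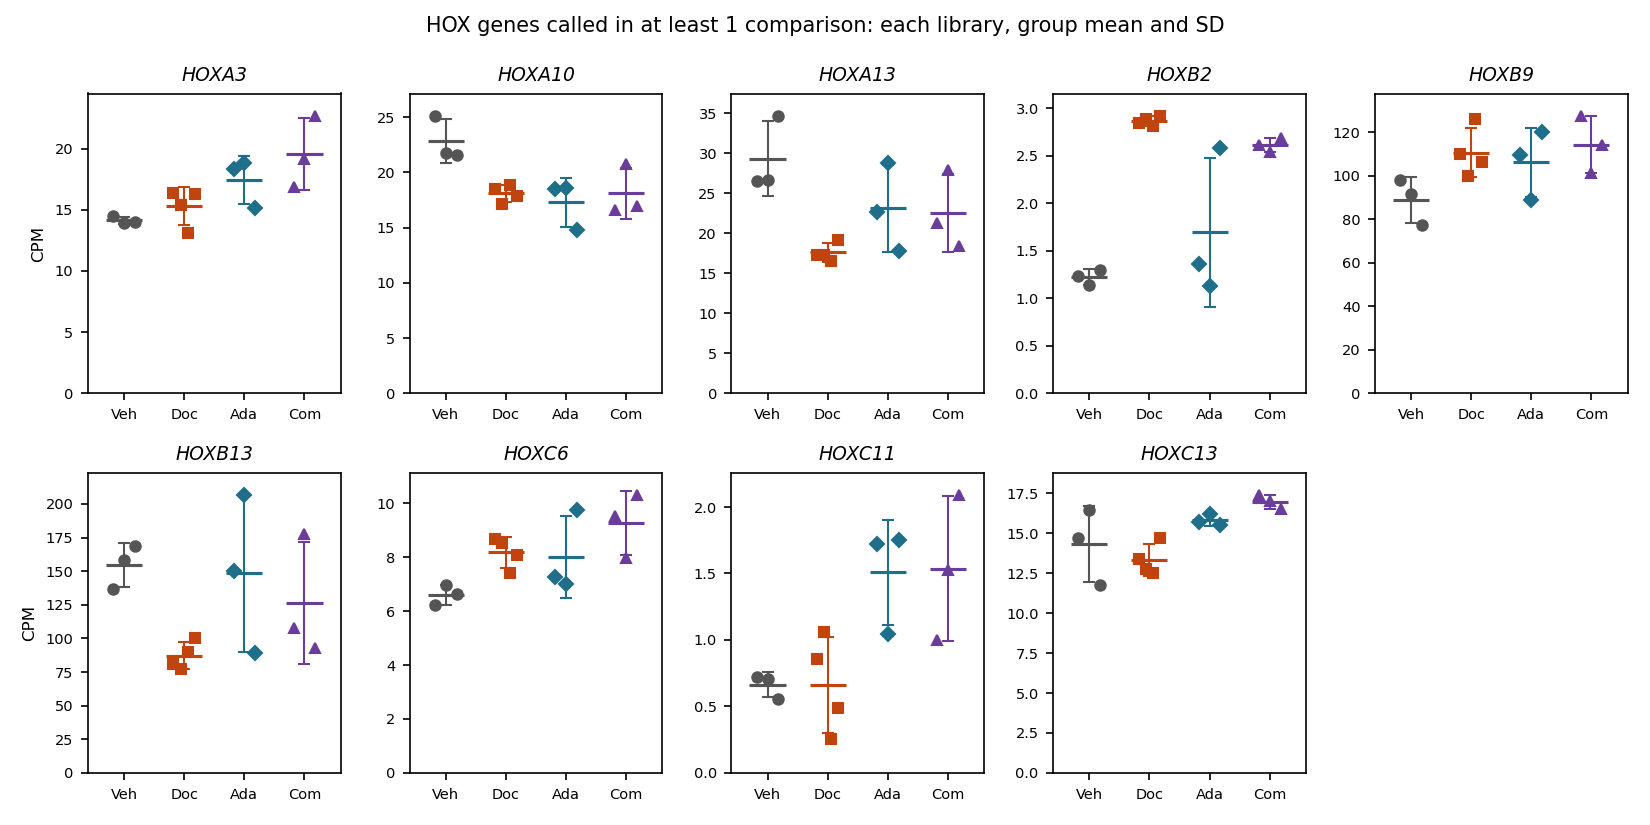
CPM of the 9 HOX genes called in at least 1 comparison, on linear axes from 0, one panel per gene, with Vehicle (Veh), Docetaxel (Doc), Adapalene (Ada) and Combo (Com) along the x axis. Points are libraries, horizontal lines group means and bars 1 SD. HOXB2 sits at 2.81 to 2.92 CPM in Docetaxel against 1.14 to 1.30 in Vehicle, and HOXB13 spreads from 89.3 to 207 CPM in Adapalene.

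The combination changed 6 HOX genes against Vehicle: 5 rose and 1 fell. That is 20.7% of the 29, against 25.8% of all genes tested (13.5% higher and 12.3% lower). This comparison uses the same 3 Vehicle libraries as the others. Of the genes that rose, HOXA3, HOXB9 and HOXC6 had log2 differences of 0.12, 0.31 and 0.31 in Docetaxel, not called. In Adapalene these genes had 0.30, 0.25 and 0.27, also not called. A call in Combo alone therefore does not show a change particular to the combination. HOXB2 was at 2.62, 2.54 and 2.69 CPM in Combo, a narrow band above Vehicle. Its log2 difference was 1.09 ± 0.27 (adjusted p 0.0081), and leaving out any library kept it called (adjusted p at most 0.0336).

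HOXA3 (chromosome 7, 27106184 to 27152581), which acts in the pharyngeal arches, was at 14.5, 13.9 and 14.004 CPM in Vehicle and at 16.9, 19.2 and 22.7 CPM in Combo. The groups did not overlap, and Combo 3 was the highest library. The log2 difference was 0.47 ± 0.13 (adjusted p 0.0138), and it was not called without Combo 3 (adjusted p 0.0803) or without the 4 libraries of high mitochondrial share (0.0794). HOXB9 (chromosome 17, 48621159 to 48626356), a gene of thoracic patterning, was at 97.9, 91.7 and 77.3 CPM in Vehicle and at 128, 101 and 114 CPM in Combo. The closest libraries of the 2 groups were 97.9 and 101 CPM. HOXB9 differed by 0.36 ± 0.12 on the log2 scale (adjusted p 0.0392), lost without Vehicle 2 (adjusted p 0.0777), Vehicle 3 (0.149), Combo 1 (0.155) or Combo 3 (0.0904).

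HOXC6 (chromosome 12, 53990624 to 54030823), a gene known for high levels in prostate cancer, was at 6.23, 6.96 and 6.63 CPM in Vehicle and at 9.53, 7.98 and 10.3 CPM in Combo. The groups did not overlap, with Combo 2 nearest to Vehicle. The log2 difference was 0.49 ± 0.15 (adjusted p 0.0297), lost without any one of Vehicle 1 (adjusted p 0.0969), Vehicle 2 (0.0572), Vehicle 3 (0.0634), Combo 1 (0.0742) or Combo 3 (0.115). HOXC11 (chromosome 12, 53973126 to 53977643), a posterior gene of the hindlimb and kidney region, was at 0.724, 0.710 and 0.558 CPM in Vehicle and at 0.997, 1.52 and 2.09 CPM in Combo, or 9 to 10 against 16 to 28 counts. The low counts are spread widely in Combo, and no library overlaps Vehicle. The log2 difference was 1.19 ± 0.42 (adjusted p 0.0459).

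The HOXC11 call was lost without Vehicle 1 (adjusted p 0.0932), Vehicle 2 (0.0952), Vehicle 3 (0.125), Combo 2 (0.0766) or Combo 3 (0.187), and when replicate number entered as a block (0.07). HOXA10, at 16.6, 20.7 and 16.9 CPM in Combo, was again lower than in Vehicle, with no overlap. Its log2 difference was −0.34 ± 0.12 (adjusted p 0.0429), and 0.0541 when replicate number entered as a block. Without Vehicle 1 (adjusted p 0.165), Vehicle 2 (0.0673), Vehicle 3 (0.0512), Combo 1 (0.129) or Combo 3 (0.14) it was not called, nor without the 4 libraries of high mitochondrial share (0.079). Of the genes higher in Combo, HOXB9 (adjusted p 0.158), HOXC6 (0.1) and HOXC11 (0.296) also lost their calls without those 4 libraries. HOXB13 was at 108, 178 and 93.1 CPM and HOXA13 at 21.3, 27.9 and 18.4 CPM in Combo, again highest in replicate 2 and lowest in replicate 3. Neither was called against Vehicle (log2 difference of HOXB13 −0.29, 95% interval −0.77 to 0.19).

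**Figure D3:**
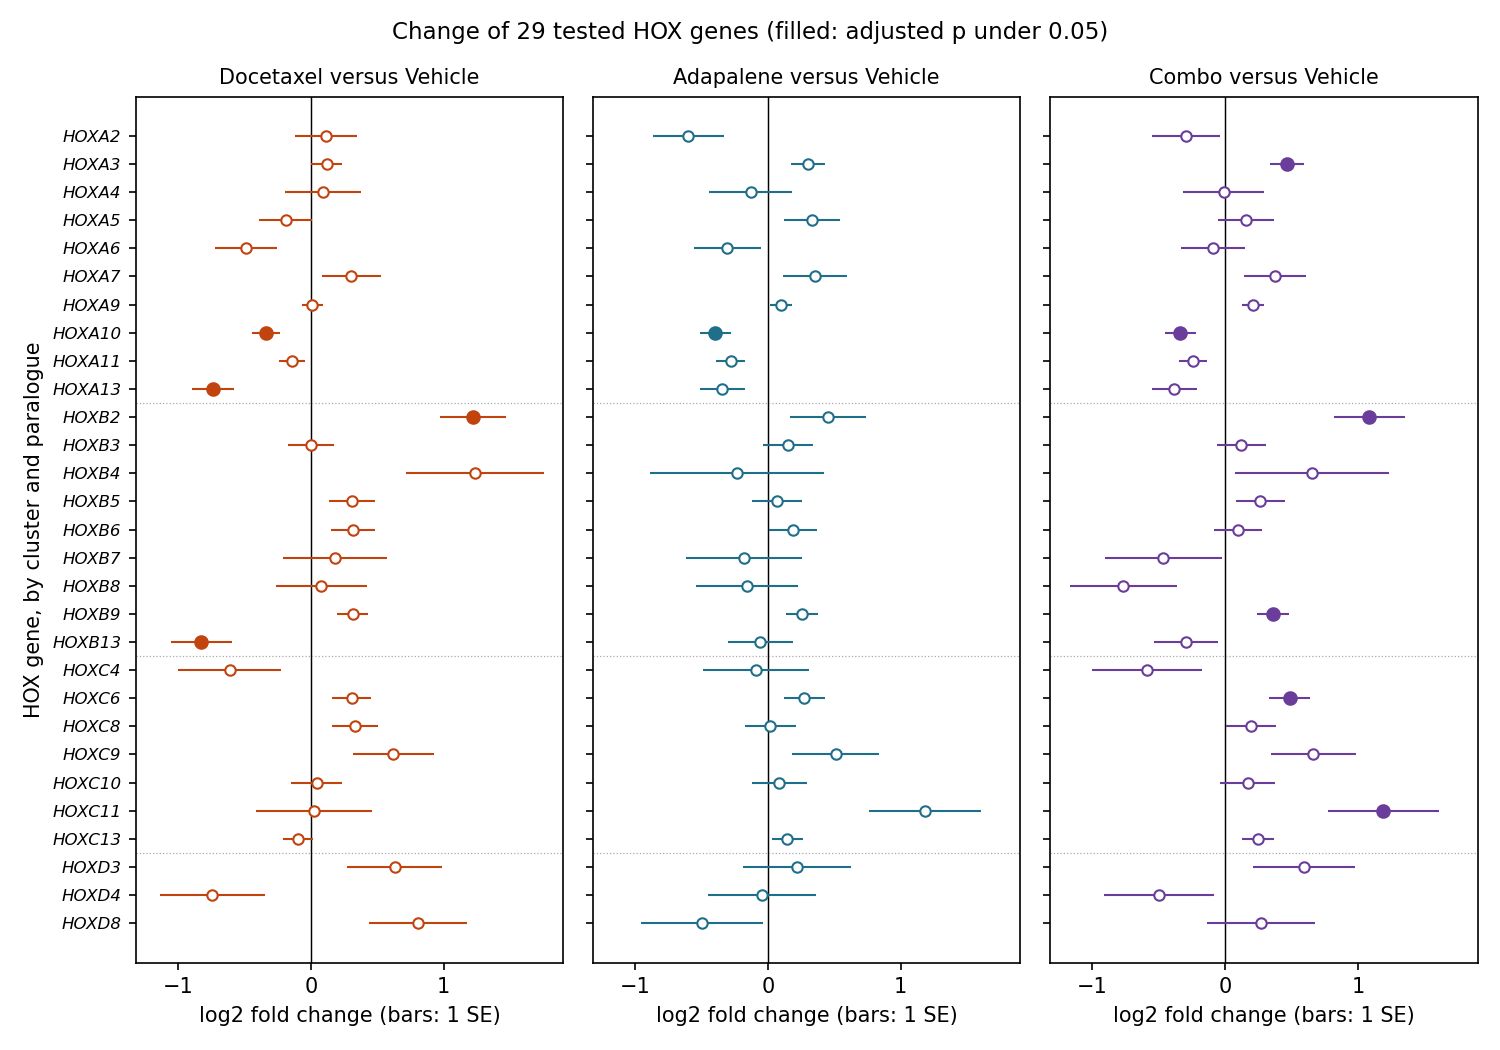
Log2 fold change against Vehicle (x axis; bars are 1 SE) of the 29 tested HOX genes in Docetaxel, Adapalene and Combo, ordered by cluster and paralogue number, with dotted lines between clusters. Filled points are called. HOXA10 is filled on the left of 0 in all 3 panels, and HOXB4, with 3 to 35 counts per library, has the widest bars.

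Combo exceeded Docetaxel in 3 of 29 HOX genes, 10.3% against 24% of all genes tested (12.8% higher and 11.2% lower); 0 were lower. HOXA3, at 16.4, 15.4, 13.1 and 16.3 CPM in Docetaxel, differed by 0.35 ± 0.12 on the log2 scale (adjusted p 0.0411). Docetaxel thus lay wholly below Combo. The HOXA3 call was kept in 1 of 7 fits without a library: it was lost without Docetaxel 1 (adjusted p 0.0601), Docetaxel 2 (0.0829), Docetaxel 3 (0.103), Docetaxel 4 (0.0579), Combo 2 (0.0843) or Combo 3 (0.188).

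HOXC13 (chromosome 12, 53938765 to 53946544), a regulator of hair keratins, was at 13.4, 12.7, 12.5 and 14.7 CPM in Docetaxel and at 17.4, 17.0 and 16.5 CPM in Combo, with no overlap. Vehicle, at 14.7, 16.5 and 11.8 CPM, spanned the Docetaxel range. Its log2 difference between Combo and Docetaxel was 0.34 ± 0.11 (adjusted p 0.0339), lost without Docetaxel 1 (adjusted p 0.0738), Docetaxel 2 (0.0878), Docetaxel 3 (0.0753), Combo 1 (0.11), Combo 2 (0.0866) or Combo 3 (0.0548). HOXC11 was at 0.853, 1.06, 0.256 and 0.487 CPM in Docetaxel, and Docetaxel 2 lay above Combo 1. HOXC11 differed by 1.17 ± 0.38 on the log2 scale (adjusted p 0.0379), lost without Docetaxel 1 (adjusted p 0.0541), Docetaxel 3 (0.0823), Docetaxel 4 (0.0936), Combo 2 (0.0888) or Combo 3 (0.151). HOXB13 and HOXA13, both lower in Docetaxel than in Vehicle, stood 0.53 ± 0.23 and 0.35 ± 0.16 higher in Combo than in Docetaxel (adjusted p 0.104 and 0.12), not called. Without the 4 libraries of high mitochondrial share both were called (adjusted p 0.0061 for HOXB13 and 0.0105 for HOXA13), HOXC13 kept its call (0.0118), and HOXA3 (0.113) and HOXC11 (0.251) lost theirs.

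No HOX gene was called between Combo and Adapalene, 0 of 29 against 0.0381% of all genes, and 1 of 29 at an unadjusted p under 0.05. DESeq2 called 0 HOX genes there too. The gene at an unadjusted p under 0.05 was HOXB2, at 1.37, 1.13 and 2.59 CPM in Adapalene. Adapalene 1 and 2 lay at the Vehicle level and Adapalene 3, which has the highest mitochondrial share, at the Docetaxel and Combo level. Its log2 difference between Combo and Adapalene was 0.63 (95% interval 0.12 to 1.15, adjusted p 0.907).

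The interaction, the difference between the effect of docetaxel with and without adapalene, was called for 0 of 29 HOX genes, against 1.44% of all genes (0.21% with a positive and 1.23% with a negative interaction), with 2 of 29 at an unadjusted p under 0.05. DESeq2 called 0. The 2 genes were HOXA13 (0.70 ± 0.23, adjusted p 0.143) and HOXA10 (0.40 ± 0.16, adjusted p 0.22). The interaction was positive, though not called, in 9 of the 10 A genes and in 1 of the 9 tested B genes. Some of these values lay near 0, as HOXA5 (0.01), HOXA4 (0.03) and HOXB3 (−0.03), and the median over all genes was 0.009. The genes share the same libraries, so their signs are not independent. HOXB13 had 0.59 ± 0.34 (adjusted p 0.394). Without a filter on low counts HOXA13 (adjusted p 0.002) and HOXB13 (0.0002) were called, and without Adapalene 2 HOXA13 was (0.0457). The intervals of these differences were wide, and a missed threshold does not show that docetaxel acted alike with and without adapalene.

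Read along the A cluster, the 3 genes numbered 10 to 13 had negative estimates in each comparison with Vehicle. HOXA9 had positive ones, with 95% intervals that spanned 0 in Docetaxel and Adapalene. For Docetaxel, Adapalene and Combo in turn, the log2 difference from Vehicle was 0.01, 0.09 and 0.21 for HOXA9 and −0.14, −0.28 and −0.24 for HOXA11, neither of them called. HOXA11 overlapped Vehicle in Docetaxel and Combo. HOXA10 was called lower in all 3 comparisons and HOXA13 in 1. Over all clusters, the 10 tested genes numbered 9 to 13 had median log2 differences of −0.04, 0.09 and 0.19. Because the 3 comparisons share the Vehicle libraries, their directions are not independent. The rank correlation of log2 difference with paralogue number in the A cluster was −0.59, −0.14 and −0.44 over 10 genes, given as a description of genes that share libraries. In the C cluster, summed CPM was 31.5 to 38.8 in Vehicle, 37.9 to 41.7 in Docetaxel, 38.4 to 44.9 in Adapalene and 43.0 to 46.1 in Combo. Combo lay above Vehicle and Docetaxel. The sum over the 10 A genes was 146 to 150 CPM in Vehicle and 127 to 130 in Docetaxel, without overlap. It was 126 to 145 CPM in Adapalene, below Vehicle, and 130 to 151 CPM in Combo, which overlapped Vehicle.

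The other 20 tested HOX genes were not called in any comparison of the main fit. Under the alternatives of the closing section, some HOX values not called in the main fit gained a call. These were 11 of 325 values in Docetaxel, 5 of 334 in Adapalene and 7 of 276 in Combo. Between Combo and Docetaxel they were 7 of 337, between Combo and Adapalene 0 of 346, and for the interaction 3 of 522. They include genes called in another comparison. HOXA9 ranged from 30.3 to 39.6 CPM and HOXA11 from 25.6 to 38.1 CPM over the 13 libraries. HOXB3 ranged from 14.3 to 24.9, HOXB6 from 14.6 to 24.9, HOXC8 from 7.18 to 11.9, HOXB5 from 6.75 to 11.6, HOXA5 from 3.15 to 7.59 and HOXC10 from 2.91 to 5.28 CPM. The remaining 12 (HOXA2, HOXA4, HOXA6, HOXA7, HOXB4, HOXB7, HOXB8, HOXC4, HOXC9, HOXD3, HOXD4 and HOXD8) had no more than 60 counts in any library. Over all tested HOX genes, HOXA6, HOXB5, HOXB9, HOXC6 and HOXD8 did not overlap between Docetaxel and Vehicle and were not called there. The same held for HOXA3, HOXA5, HOXA7, HOXA11, HOXC6 and HOXC11 in Adapalene, and for HOXA7, HOXA9, HOXC9 and HOXC13 in Combo. Some of these were called in another comparison. The share of all genes without overlap was not counted, so the lists only describe these genes. HOXB8 in Combo (0.311, 0.580 and 1.19 CPM) was called lower than Vehicle only when Combo 3 was left out (adjusted p 0.0345) or the 4 libraries were (0.0421).

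Some of these genes share exon bases with neighbours, and the counting program's strand setting is not given. Annotated antisense exons cover 16.4% of HOXA10 exon bases (HOXA10-AS), 31.1% of HOXA11 (HOXA11-AS), 62.5% of HOXA7 (HOXA-AS3) and 1.69% of HOXA13 (HOTTIP). HOXB9, HOXB13 and HOXC11 share none. Reads in the bases that HOXA10 and HOXA10-AS share can therefore be told apart only where the counting used strand. Exons of other genes on the same strand cover 9.93% of HOXA10, 9.24% of HOXA3 and 15.7% of HOXC6 exon bases, which strand does not separate. Antisense exons cover 15.4% of HOXA3.

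Of 14 tested noncoding and neighbouring genes of the clusters (20 of the 23 listed were in the table), 0 were called higher and 3 lower in Docetaxel, 0 and 2 in Adapalene, and 0 and 3 in Combo. Over all genes tested the shares higher and lower were 13.2% and 12.8% in Docetaxel, 9.25% and 9.16% in Adapalene, and 13.5% and 12.3% in Combo, so the share of these 14 called was near that of all genes in Docetaxel. HOXA10-AS, the antisense transcript of HOXA10, was at 22.1, 19.0 and 20.9 CPM in Vehicle, 15.1, 15.2, 17.5 and 15.2 in Docetaxel, 14.4, 14.9 and 12.1 in Adapalene and 15.5, 15.7 and 12.9 in Combo. Like HOXA10, it was lower in every treated library than in every Vehicle library. Its log2 differences were −0.39, −0.58 and −0.49 (adjusted p 0.0144, 0.0038 and 0.0063), and without Vehicle 1 the Docetaxel call was lost (0.0615). PRAC2, next to HOXB13, was lower in all 3 comparisons (log2 −0.57, −0.67 and −0.81, adjusted p 0.0374, 0.0341 and 0.01). PRAC1, which encodes a small nuclear protein of prostate and colon, was lower in Docetaxel (−0.73, adjusted p 0.0416), where Docetaxel 4 (33.3 CPM) was far above the other 3 (17.3 to 19.0). HOXA11-AS was lower in Combo (−0.55, adjusted p 0.0488).

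Single libraries decided several of these calls. PRAC1 was not called without Vehicle 2, Vehicle 3, Docetaxel 1, Docetaxel 2 or Docetaxel 3, nor by DESeq2 (adjusted p up to 0.197). PRAC2 in Docetaxel was not called without Vehicle 1, Vehicle 2, Docetaxel 1, Docetaxel 2 or Docetaxel 4 (up to 0.126), nor when replicate number entered as a block. In Adapalene PRAC2 was not called without Vehicle 1, Vehicle 2, Adapalene 3 or the 4 libraries of high mitochondrial share. With only the groups compared it was not called there either (up to 0.119 under the alternatives). HOXA11-AS was not called without Vehicle 2, Vehicle 3, any Combo library or the 4 libraries of high mitochondrial share. Nor was it called without the filter on low counts or with only the groups compared (up to 0.169 under the alternatives). The PRAC2 call in Combo was kept under each alternative run (adjusted p at most 0.048). HOTTIP, the transcript beside HOXA13 that recruits trithorax proteins, was at 5.20 to 6.04 CPM in Vehicle and 3.27 to 5.07 in Docetaxel, and was not called in any comparison with Vehicle (log2 −0.41, −0.44 and −0.54). HOTAIR (2.10 to 3.95 CPM over all libraries) and HOTAIRM1 (2.39 to 6.42) were not called either, nor were HOXA-AS2, HOXA-AS3, HOXB-AS1, HOXC-AS2, HOXC13-AS, HOXD-AS2 and HAGLR.

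**Figure D4:**
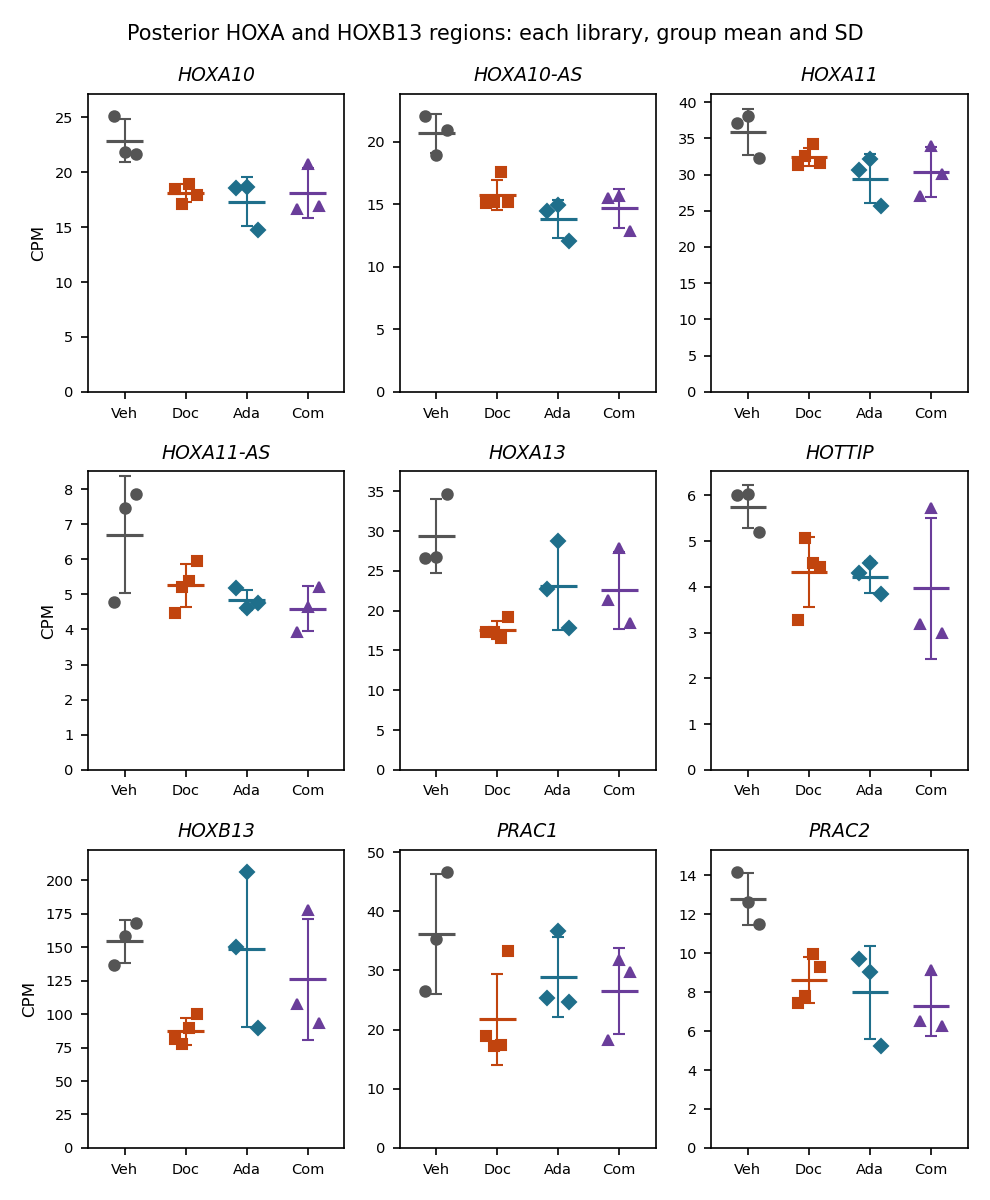
CPM of the posterior A genes and HOXB13 with their antisense or neighbouring transcripts, on linear axes from 0, with the 4 groups along the x axis. Points are libraries, lines group means and bars 1 SD. HOXA10 and HOXA10-AS are both highest in Vehicle, and the Docetaxel library of PRAC1 at 33.3 CPM stands above the other 3.

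Of 8 tested TALE partners, 1 was higher and 1 lower in Docetaxel, 2 and 2 in Adapalene, and 2 and 1 in Combo. Over all genes 25.9%, 18.4% and 25.8% were called in the 3 comparisons, and the Docetaxel share of these 8 was near that. MEIS2 fell in all 3 groups (log2 −0.40, −0.36 and −0.53). TGIF2, a relative of TGIF1, was at 30.9, 32.4 and 28.6 CPM in Vehicle and 22.8, 27.2 and 20.7 CPM in Adapalene, with no overlap. Its log2 difference was −0.38 ± 0.13 (adjusted p 0.0493), called under 3 of 12 alternatives (adjusted p up to 0.148) and lost when any 1 Vehicle library, Adapalene 1 or Adapalene 3 was left out.

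MEIS3 was at 1.88, 2.63 and 3.16 CPM in Vehicle, 5.89, 4.92 and 4.84 in Adapalene and 4.36, 6.82 and 4.92 in Combo, while Docetaxel (2.56 to 3.65) overlapped Vehicle. Both groups with adapalene lay above all Vehicle libraries. Its log2 differences were 1.02 ± 0.23 and 1.06 ± 0.23 (adjusted p 0.0083 and 0.0043) and 0.23 in Docetaxel (0.491). TGIF1, a repressor of the same homeodomain class, rose in all 3 groups (log2 0.52, 0.23 and 0.41). In Adapalene, MEIS2 lost its call without Vehicle 1, Adapalene 1, Adapalene 3 or the 4 libraries of high mitochondrial share. TGIF1 lost its call there without Vehicle 1, Vehicle 2, Adapalene 1, Adapalene 2 or the filter on low counts. With only the groups compared neither was called (adjusted p up to 0.101 for MEIS2 and 0.192 for TGIF1 under the alternatives).

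Of 29 tested trithorax and polycomb genes, 2 were higher and 10 lower in Docetaxel, 1 and 4 in Adapalene, and 2 and 8 in Combo. Against these stand 13.2% higher and 12.8% lower over all genes in Docetaxel, 9.25% and 9.16% in Adapalene (where the total share called was near the 18.4% of all genes), and 13.5% and 12.3% in Combo. KDM6B, which removes the polycomb methyl mark, was at 27.1, 26.8 and 29.2 CPM in Vehicle and 52.0, 56.6, 43.3 and 53.4 in Docetaxel, and at 36.5 to 54.9 CPM in Adapalene and Combo together, above every Vehicle library. Its log2 differences were 0.89, 0.48 and 0.70 (adjusted p 0.0001, 0.0174 and 0.0011), the one in Adapalene lost without Vehicle 1 or Vehicle 2 (adjusted p up to 0.0648). PSIP1, which tethers the trithorax protein menin to chromatin, fell in Docetaxel (log2 −0.63 ± 0.08, adjusted p 4.005e-05). It also fell in Combo (−0.27 ± 0.08, adjusted p 0.0219; up to 0.103 under the alternatives). The Combo call was lost without Vehicle 1, Vehicle 3, Combo 3 or the 4 libraries of high mitochondrial share. RBBP4, a histone-binding polycomb subunit, fell in Docetaxel (−0.39) and Combo (−0.36). KDM6A, which removes the same mark as KDM6B, was at 42.4, 44.7 and 42.9 CPM in Vehicle and 54.8, 58.5, 53.3 and 60.8 in Docetaxel. It rose in Docetaxel (0.39 ± 0.08, adjusted p 0.002, called under each alternative run) and in Combo (0.25, adjusted p 0.0374). Its Combo call was lost without any 1 Vehicle library, Combo 1, Combo 3 or the 4 libraries of high mitochondrial share. It was also lost without the filter on low counts and with only the groups compared (adjusted p up to 0.169 under the alternatives).

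CTCF, the insulator protein that bounds HOX domains, was at 78.0, 73.2 and 70.1 CPM in Vehicle, 46.4, 46.3 and 42.9 in Adapalene and 44.2, 46.6 and 35.4 in Combo. Docetaxel (70.7 to 81.6 CPM) overlapped Vehicle. The log2 differences were −0.71 ± 0.09 and −0.81 ± 0.09 (adjusted p 0.0003 and 5.787e-05), called under each alternative run. Of the 6 tested upstream and partner factors, 0 were higher and 1 lower in Docetaxel, 0 and 3 in Adapalene, and 0 and 2 in Combo, against 25.9%, 18.4% and 25.8% of all genes called in either direction. FOXA1, the pioneer factor that works with HOXB13, fell in Adapalene (−0.62, adjusted p 0.0188) and Combo (−0.61, adjusted p 0.0134), lost without Vehicle 2, Adapalene 1 or Combo 3 (up to 0.0698). NUP98, a nuclear pore protein that forms fusions with HOXA9 in leukaemia, fell in Adapalene (−0.31, adjusted p 0.0264; up to 0.129 under the alternatives). The NUP98 call was lost without Vehicle 1, Vehicle 2, Adapalene 1 or Adapalene 2, and with only the groups compared. LNPK, a neighbour of the D cluster, was lower in Docetaxel (−0.23, adjusted p 0.0449), called under 1 of 13 alternatives (adjusted p up to 0.123) and lost when any 1 Vehicle library, Docetaxel 2, Docetaxel 3 or Docetaxel 4 was left out.

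Of 10 tested retinoid receptors and targets, 1 was higher and 1 lower in Docetaxel, 0 and 1 in Adapalene, and 0 and 0 in Combo, where the shares of all genes called were 25.9%, 18.4% and 25.8%. RARB, itself a retinoic acid target, was at 2.83, 3.34 and 2.36 CPM in Vehicle and 1.58, 1.05 and 1.75 in Adapalene, lower in every library and not called (log2 −0.95, adjusted p 0.0578). RARA was lower in Adapalene (−0.27, adjusted p 0.0383). It was called under 4 of 12 alternatives (adjusted p up to 0.167) and lost without Vehicle 1, Vehicle 2 or any Adapalene library. NRIP1, a receptor corepressor, rose in Docetaxel (0.51) and RXRA fell there (−0.36), a call lost without Vehicle 2 (adjusted p 0.052). Between Combo and Docetaxel 1 of the 10 was higher (PLAAT4) and 2 were lower (NRIP1 and RARB), against 12.8% and 11.2% of all genes. The NRIP1 call there was kept under each alternative run. PLAAT4 lost its call without Combo 2 (adjusted p 0.07005), and RARB without Docetaxel 3 or Combo 2 (up to 0.0943).

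**Figure D5:**
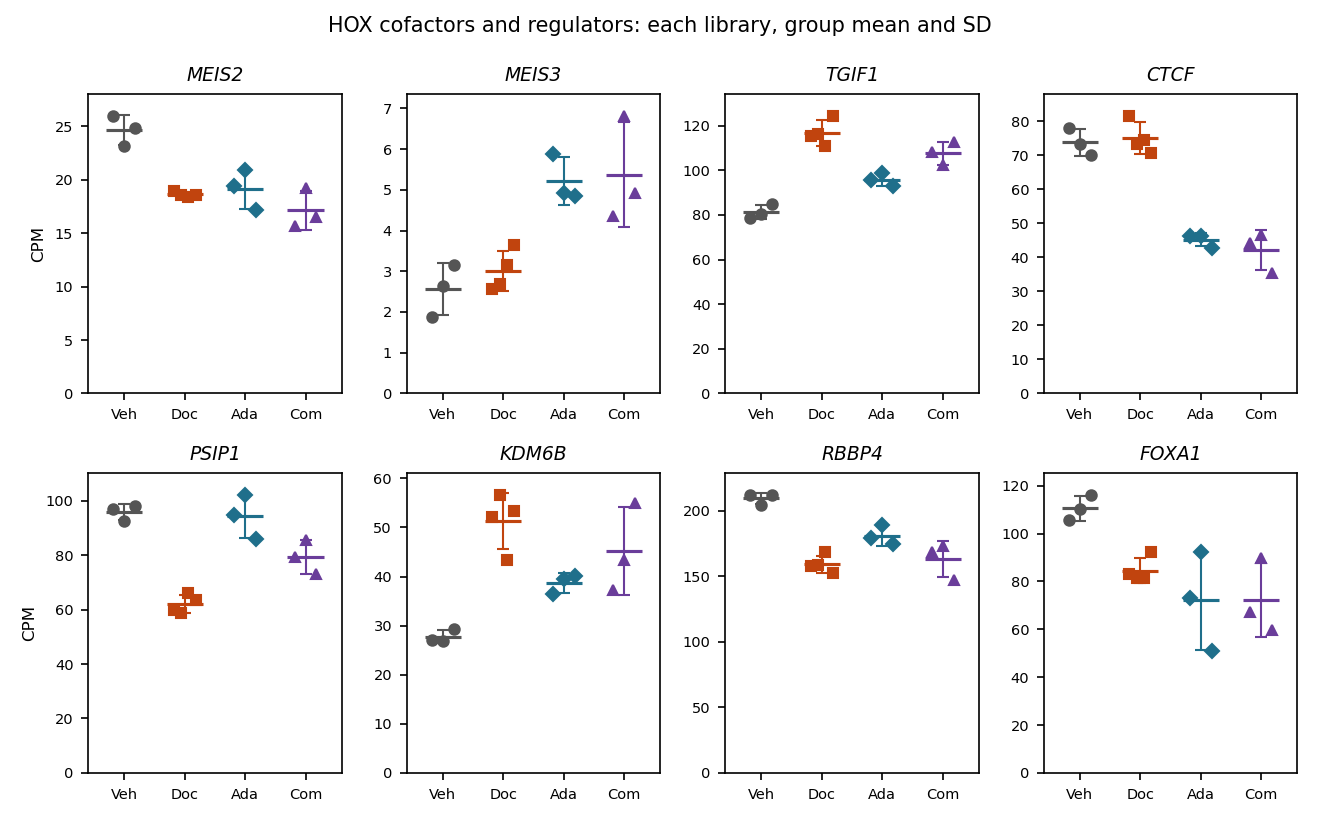
CPM of 3 TALE genes (MEIS2, MEIS3, TGIF1) and 5 regulators or partner factors (CTCF, PSIP1, KDM6B, RBBP4, FOXA1), on linear axes from 0, with the 4 groups along the x axis. Points are libraries, lines group means and bars 1 SD. CTCF is at 35.4 to 46.6 CPM in the 2 groups that received adapalene and at 70.1 to 81.6 CPM in Vehicle and Docetaxel.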

How the data were processed

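Polyadenylated RNA of 13 libraries was sequenced as single reads with a strand-preserving kit, per the labels' protocols. STAR 2.7.10a, FastQC, DESeq2 and build GRCh38.p13 are listed, per the submitters' processing notes; roles, counting program and strand setting are not given there. What the authors deposited is one table of raw counts, unnormalized. All 15734 genes passing filterByExpr (minimum count 10, minimum total 15) were fitted with edgeR 4.0.16 (R 4.3.3): TMM scaling, 4 group means and quasi-likelihood tests, with p-values adjusted by the Benjamini-Hochberg method over all genes. CPM use TMM library sizes, and CPM per kb divide by exon length in GENCODE release 29. Intervals are estimates ± a normal multiple of the SE. Alternatives, including DESeq2 1.42.0, are described in the closing section. The fit was tested on simulated counts. Members, gene lists and tests were chosen with earlier results of these data known. A few genes of these lists are not reported here and are left out of the counts of members and of the figures, though the fit holds them. Every other HOX gene was accounted for, with per-library values for those called. Other lists name up to 4 members of smallest adjusted p, with PLAAT4 added in the retinoid list.

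Same-numbered libraries' deviations from group means correlated at 0.257, 0.159 and 0.174 between Vehicle and Combo. Between Adapalene and Combo they correlated at 0.0202, 0.529 and 0.4147. Libraries of different number could correlate more strongly than those of Vehicle and Combo, as Vehicle 3 with Docetaxel 4 (0.3415). Others were negative, as Adapalene 3 with Combo 2 (−0.5658). These values come from the data, and the labels name no pairing. Chi-square per degree of freedom between replicates was 2.32 to 21.95, so each library was counted as its own sample.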

Additional observations from a re-analysis of the deposited data

Results flagged for a closer look

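HOXA4, an anterior gene at 16 to 44 counts per library, was at 2.89 CPM in Docetaxel 2. The other 3 Docetaxel libraries (2.13, 2.21 and 2.19 CPM) lie below it and close together. In counts these are 41 against 30, 26 and 36, a small gap at such low counts. Of 29 HOX genes examined in this way, 1 was singled out, and chance picks about 1 in 20 such groups. The Vehicle libraries, at 2.75, 1.14 and 2.73 CPM, spread more widely than the Docetaxel libraries.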

How the results depend on the processing

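The direction of every called HOX value held under every alternative run: another scaling (DESeq2's size factors in edgeR), no filter on low counts, a replicate block, DESeq2, only the groups compared, each library left out and, chosen after seeing the data, the 4 libraries with over 2% mitochondrial counts left out. Calls of HOXA13 in Docetaxel and of HOXB2 in Docetaxel and in Combo held throughout. The number of HOX genes higher in Docetaxel (1) was 3 without the filter, 2 by DESeq2, 3 with only the groups compared and 3 without the 4 libraries. In Adapalene the number higher (0) was 1 with only the groups compared, and the number lower (1) was 2 without the filter, 0 with only the groups compared and 0 without the 4 libraries. In Combo the number higher (5) was 1 without the 4 libraries, and the number lower (1) was 2 without the filter, 0 with the replicate block and 0 with only the groups compared. Against Docetaxel the number higher in Combo (3) was 1 with the replicate block, and the number lower (0) was 1 without the 4 libraries. The interaction (0 higher) gave 2 without the filter. Over all genes, Combo against Adapalene (6 calls) gave 128 without the filter, 2 with the replicate block, 39 by DESeq2 and 0 with only the groups compared; the interaction (227) gave 946, 485 by DESeq2 and 633 without the 4 libraries.

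Leaving out each library in turn gave 2347 to 3760 calls over all genes in Docetaxel (4082 with all), 1494 to 2666 in Adapalene (2896), 2486 to 3971 in Combo (4058), 2292 to 3541 for Combo against Docetaxel (3783), 0 to 33 for Combo against Adapalene and 59 to 523 for the interaction. HOX genes called higher then numbered 1 to 2 in Docetaxel, 0 to 1 in Adapalene, 1 to 4 in Combo, 0 to 2 for Combo against Docetaxel and 0 to 1 for the interaction. Those called lower numbered 1 to 3, 0 to 2, 0 to 3 and 0 to 1 in the first 4 comparisons. The cause of these changes was not tested, and each of these fits also had fewer libraries. Some fits gave more calls over all genes than the 6 (Combo against Adapalene) and 227 (interaction) with all libraries. Same-numbered libraries did not all correlate positively between Docetaxel and any other group. Replicate number 4 occurs only in Docetaxel, so in comparisons with that group the block also takes out Docetaxel 4. The block lost the calls of HOXA10 in Docetaxel (adjusted p 0.0628) and of HOXA3 (0.0603) and HOXC11 (0.12) between Combo and Docetaxel. Each of these calls was also lost when only Docetaxel 4 was left out. Beside these calls and the values given with HOXA10 and HOXC11 in Combo, the block changed no other HOX call. Whether depth kept the 12 genes with at most 60 counts in any library from being called was not tested. HOXB2 and HOXC11 were called at no more than 48 and 28 counts per library.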
